A study of Mus musculus with 5 samples.

Results

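Vascular guidance ligands and receptors were taken as every gene whose symbol belongs to the ephrins, the Eph receptors, the semaphorins of classes 3 to 7, the plexins, the Slit ligands, the Robo receptors, the netrins or the Unc5 receptors. The rule used names only and found 57 of the 17638 genes listed, 32 ligands and 25 receptors. The families held 8 ephrins, 9 Eph receptors, 6 class 3 semaphorins, 13 semaphorins of classes 4 to 7, 9 plexins, 7 Slit and Robo genes and 5 netrin and Unc5 genes. The libraries hold polyadenylated RNA of CD31-positive heart cells, from 2-month-old C57BL/6 mice 5 days after myocardial infarction. There were 3 control libraries and 2 libraries labelled Tbx1cko, which the series describes as a knockout of Tbx1 in endothelium. Both groups shared strain, age, infarction and time point. The driver of the deletion, the alleles carried by the controls and the number of animals behind a library are missing from the descriptions read here. The p-values thus measure the spread between these libraries, which among the controls may be technical. By their Xist and Y-linked reads, given below, the 2 Tbx1cko libraries came from different animals.

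These families act between neighbouring cells or from secreted gradients. Ephrins are bound to the cell surface and signal through Eph receptor kinases, and the pair Efnb2 and Ephb4 marks arterial and venous endothelium. Class 3 semaphorins are secreted and act through plexins with neuropilins as co-receptors, whereas classes 4 to 7 are mostly membrane-bound and engage plexins directly. Slits bind Robo receptors, netrins bind Unc5 receptors, and in endothelium Robo4 and Unc5b bind one another and help to keep the vessel wall tight.

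Recovered reads per library ran from 14689782 to 18617284. Tbx1, the targeted gene, stood at 64.4, 72.7 and 69.6 (controls) and at 18.3 and 17.3 (knockouts), a log2 difference of -1.89 with an SE of 0.297. Every Tbx1cko library was below every control, but the limma adjusted p over 14339 tested genes was 0.762, and over the alternatives it ran from 0.0326 to 0.996. Values are given throughout as reads divided by the library's size factor, in the order control 1, 2, 3 and Tbx1cko 1, 2. Control replicate 2 was unlike the rest: over all genes it had a Pearson r of 0.921 and 0.912 with the other controls, against 0.980 between those and 0.981 between the knockouts. The fits were therefore also run without it. Xist, the RNA of the inactive X chromosome, read 12967.7 in Tbx1cko replicate 2 and at most 16.9 in any other library. The Y-linked Ddx3y read 1673.4, 43.2 and 2116.2 in the controls and 1928.9 and 3.1 in the knockouts. Uty, Kdm5d and Eif2s3y read 2.0, 0.0 and 0.0 in Tbx1cko replicate 2 and at least 36.8 in every other library. By these genes Tbx1cko replicate 2 was female and the others male, so sex was not balanced between genotypes. The part of sex in the genotype differences was not tested.

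The way control replicate 2 departed from the others followed the base composition of the guidance transcripts, and the class 3 semaphorins serve as the example. Below are 120 coding bases from the middle of the longest coding exon of 1 member that was high and 2 that were low in that library, with G and C in capitals. Positions are on GRCm38 with the GENCODE M21 annotation, and all 3 windows are exonic coding sequence, 5′ to 3′ on the gene's own strand. The Sema3g window lies at chr14:31227913-31228032 on the plus strand in exon 16, that of Sema3a at chr5:13599314-13599433 on the plus strand in exon 17 and that of Sema3d at chr5:12585028-12585147 on the plus strand in exon 18.
Sema3g: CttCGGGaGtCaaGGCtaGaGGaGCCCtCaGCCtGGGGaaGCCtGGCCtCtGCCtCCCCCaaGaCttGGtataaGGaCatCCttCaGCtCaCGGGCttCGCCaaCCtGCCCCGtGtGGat
Sema3a: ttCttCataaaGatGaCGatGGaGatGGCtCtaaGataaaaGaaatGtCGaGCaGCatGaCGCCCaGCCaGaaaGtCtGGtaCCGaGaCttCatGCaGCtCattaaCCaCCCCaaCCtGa
Sema3d: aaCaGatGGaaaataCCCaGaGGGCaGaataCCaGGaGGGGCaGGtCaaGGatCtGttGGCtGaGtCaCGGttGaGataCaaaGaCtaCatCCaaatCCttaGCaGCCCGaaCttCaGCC
G and C made up 61.7% of the Sema3g window, 46.7% of that of Sema3a and 50% of that of Sema3d. Over the whole transcript the contents were 56.2% for Sema3g, 40.8% for Sema3a and 39.2% for Sema3d, and 58.4% for Sema3f.

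Sema3f and Sema3g, both GC-rich, were highest in control replicate 2. Sema3f read 5650.6, 8344.6 and 6067.2 in the controls and 6014.5 and 4792.7 in the knockouts, and Sema3g read 3770.5, 8292.1 and 4153.3 in the controls and 3627.3 and 4408.5 in the knockouts. Sema3d, with a low GC content, read 316.4, 45.1 and 538.2 in the controls and 341.1 and 246.6 in the knockouts, so that control replicate 2 held far less of it than any other library. Sema3a read 172.9, 38.6 and 209.8 in the controls and 181.1 and 142.7 in the knockouts, again lowest in control replicate 2. Over the 54 tested members, the log2 deviation of control replicate 2 had a Spearman rho of 0.695 with transcript GC content, against 0.815 over the 13771 tested genes with a GC value. These rho values describe genes of the same libraries, which are not independent replicates. Of the 40 tested members with a GC content of at least 50%, 38 were higher in control replicate 2 than the mean of the other 4 libraries, with a median log2 deviation of 0.71. Of the 14 below 50%, 10 were lower, with a median of -0.29. The log2 difference between genotypes had a rho of -0.554 with GC over the members, and -0.279 without control replicate 2. Over all tested genes with a GC value, these were -0.724 and -0.305. Whether base composition accounts for any genotype difference was not tested. A correction for GC was run as an alternative to the main fit.

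**Figure D1:**
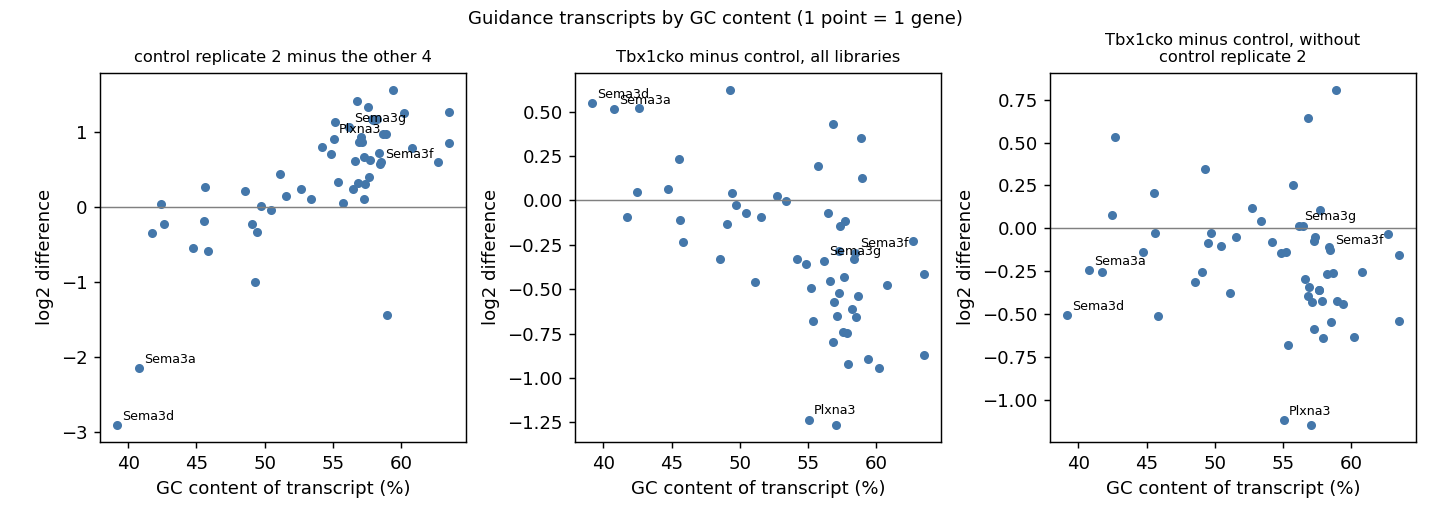
Each point is 1 of the 54 tested guidance genes, with GC content of its transcript in percent on the horizontal axis and a log2 difference on the vertical axis: control replicate 2 minus the other 4 libraries (left), Tbx1cko minus control with all libraries (middle) and without control replicate 2 (right). The left panel rises with GC (rho 0.695) and the middle panel slopes down (rho -0.554), less so on the right (rho -0.279).

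A few transcripts dominated the families. Per kilobase of transcript, Plxnd1, the plexin for semaphorin signals in vessels, was the most abundant member at 4496 ± 1335 normalised reads per kb (mean ± SD over the 5 libraries). Sema7a, a semaphorin held to the membrane by a lipid anchor, followed at 4211 ± 971, and these neighbours in the order did not differ beyond their spread. Robo4 came next at 2096 ± 535, then Sema3f at 1819 ± 388 and Ephb4 at 1586 ± 409.7, with overlapping spreads. Sema4c stood at 1211 ± 407, Efna1 at 1091 ± 312, Sema3g at 1068 ± 429, Unc5b at 929.6 ± 342 and Efnb2 at 854 ± 67.6. By level per kb, 11 members lay above the 90th percentile of the genes listed with a length and 24 below the 30th.

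In most families 1 member held the larger part of the level. Robo4 made up 96% to 96.7% of the Slit and Robo level per kb in every library, and Plxnd1 72.4% to 82.8% of the plexin level. Ephb4 made up 59% to 62.6% of the Eph level and Unc5b 71.3% to 75.4% of the netrin and Unc5 level. Sema3f and Sema3g held 57% to 66.5% and 30% to 42.3% of the class 3 semaphorins. Among the semaphorins of classes 4 to 7, Sema7a held 52.9% to 61.9%. The ephrins were shared more evenly, with 38.8% to 45.6% for Efna1, 23.1% to 39.3% for Efnb2 and 18.5% to 30.2% for Efnb1. At the other end, Efna3, Sema4f and Unc5c had a mean under 10 normalised reads and were not tested, and Unc5c was listed at 0 in control replicate 2.

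**Figure D2:**
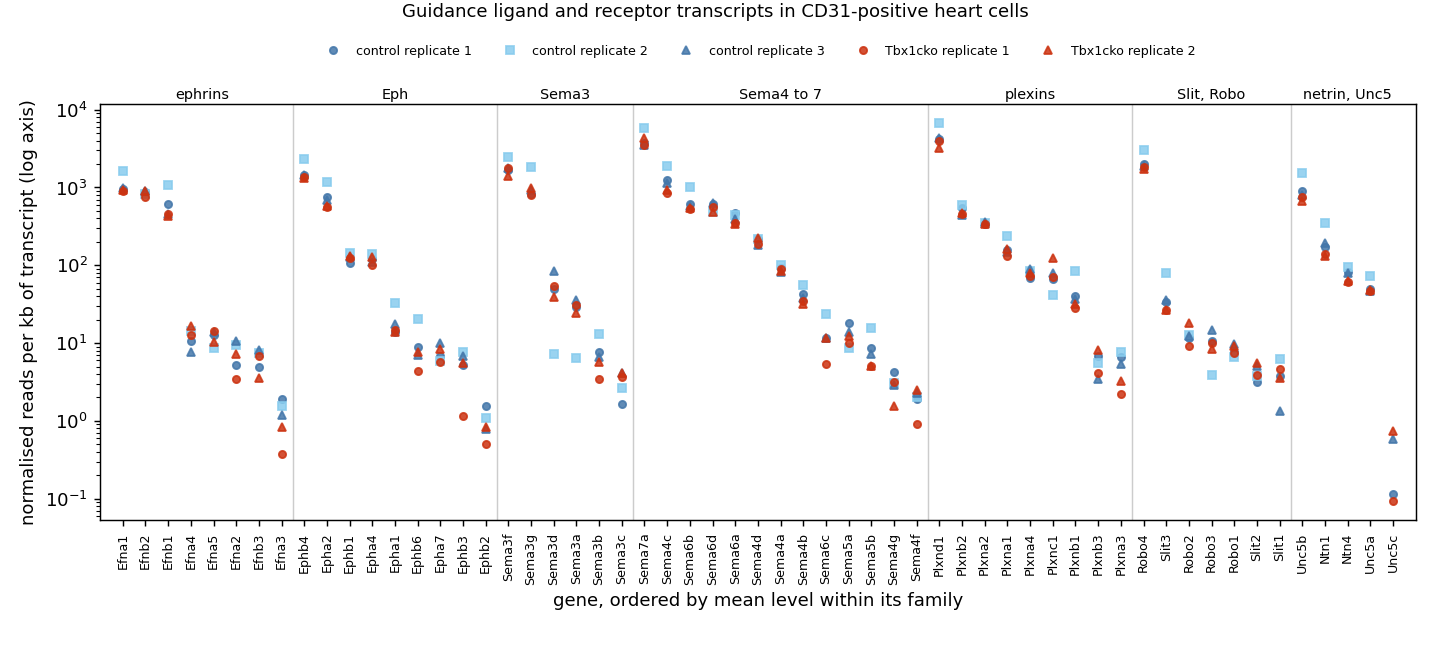
Normalised reads per kb of transcript (log axis) for the 57 members, grouped by family and ordered by mean level, with 1 point per library and control replicate 2 as squares. Plxnd1, at 4496 reads per kb, and Sema7a, at 4211, stand at the top; the 0 of Unc5c in control replicate 2 cannot be drawn on a log axis.

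The comparison of Tbx1cko with control asks how the loss of Tbx1 in endothelium went with gene expression in these cells after infarction. No guidance gene passed an adjusted p of 0.05 by limma, which called 0.0% of all 14339 tested genes. The tested members leaned to lower values in Tbx1cko: 41 of 54 had a negative log2 difference (75.9%, against 47.6% of all tested genes), with a median of -0.31 against 0.03. The members were richer in GC, with a median transcript content of 56.5% against 50.1% for all tested genes. Of the 40 members with at least 50% GC, 35 were lower, with a median of -0.44. Below 50% GC, 6 of 14 were lower, with a median of 0.04. Without control replicate 2, these were 32 of 40 (median -0.26) and 10 of 14 (median -0.11). The part of GC content in this lean was not tested. In 19 members (35.2%) both Tbx1cko libraries lay below all 3 controls, against 13.9% of all genes, and in 0 members did both lie above, against 14.2%. Of those 19, 18 had their highest value in control replicate 2. At an unadjusted p under 0.05, 1 member was lower (1.85%, against 1.37% of all genes) and 0 were higher (against 0.37%). DESeq2 on the recovered reads called 0 members and 0.0279% of all genes. In bulk RNA, fewer cells of a type and less RNA per cell cannot be told apart.

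Without control replicate 2 the median of the members lay closer to 0. Then 42 of 54 members were lower (77.8%, against 46.7% of all genes), with a median of -0.20 against 0.02. Both knockouts lay below the 2 remaining controls in 22 members (40.7%, against 17.8%), which are the 19 above, as they must be, with Sema5a, Sema6d and Robo3 added. Efna4 alone lay above both controls (1.85%, against 19.7%). At an unadjusted p under 0.05, 7 members were lower (13%, against 4.07%) and 0 higher (against 3.39%). These 7 were Epha2, Ntn1, Ntn4, Plxna3, Sema4c, Sema5a and Sema6a. limma then called 0.0209% of all genes and DESeq2 0.453%, none of them a member. With a correction for GC over all 5 libraries the median of the members was -0.19, and with both changes it was -0.13.

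**Figure D3:**
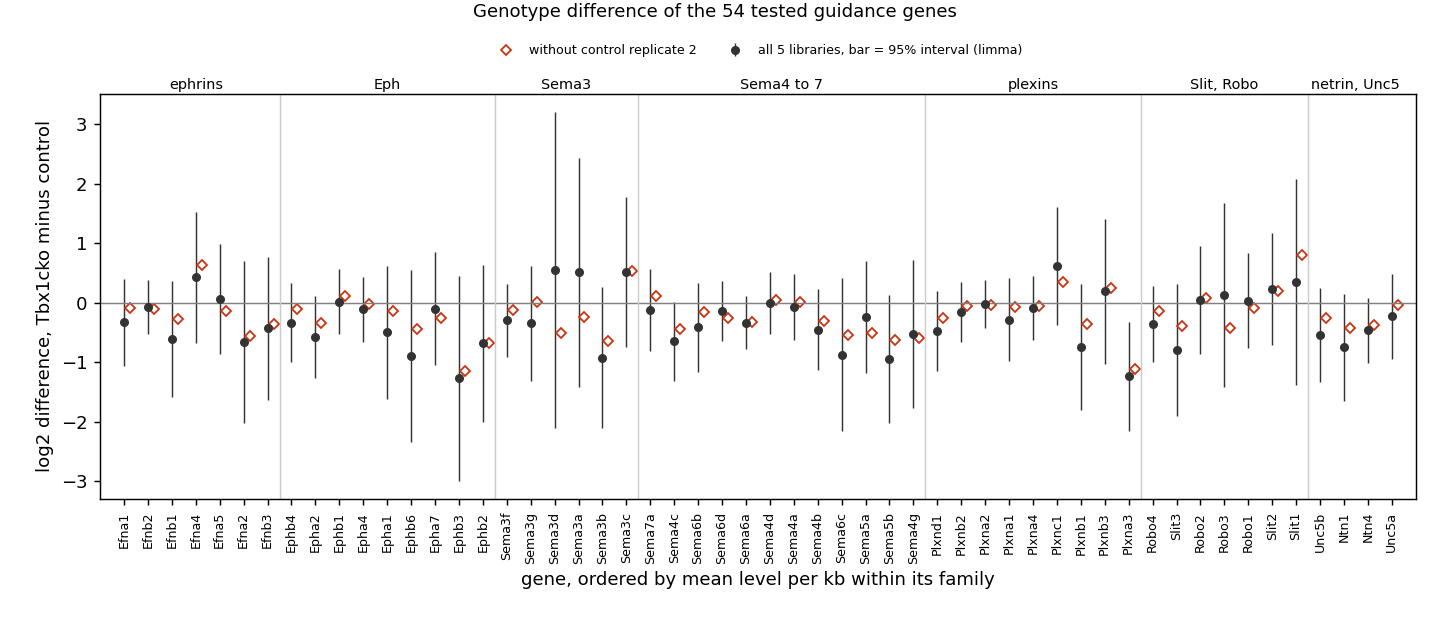
Log2 difference of Tbx1cko minus control for the 54 tested members, grouped by family, as filled points with 95% limma intervals, and as open diamonds without control replicate 2. With all libraries 41 of the 54 points lie below 0, and the interval of Plxna3 (-2.15 to -0.32) is the one that lies wholly below it.

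Among the ephrins, the ligands of the Eph receptors, 5 of 7 tested members were lower and 2 higher, with a median log2 difference of -0.33, of -0.14 without control replicate 2 and of -0.13 after the GC correction. Efna1, an A-class ephrin of endothelium, read 1571.7, 2687.7 and 1621.2 in the controls and 1489.0 and 1532.7 in the knockouts. Both knockouts were below all controls, by a log2 difference of -0.33 (SE 0.294) that came to -0.079 without control replicate 2 and to -0.13 after the GC correction. Efnb1, a transmembrane B-class ephrin encoded on the X chromosome, read 2021.4, 3553.2 and 1487.6 in the controls and 1486.2 and 1400.2 in the knockouts. Its lowest control and highest knockout were nearly equal, and the difference was -0.61 (SE 0.391), or -0.27 without control replicate 2 and -0.28 after the GC correction. Efnb2, the arterial ephrin, read 4135.4, 3993.8 and 4378.2 in the controls and 3589.8 and 4365.7 in the knockouts, so its groups overlapped. Its difference was -0.074, with an interval of -0.53 to 0.38. Efna2 read 11.3, 20.2 and 22.6 in the controls and 7.3 and 15.3 in the knockouts, a level near the filter where few reads carry the value. Efna4 read 16.9, 23.0 and 12.2 in the controls and 20.1 and 26.5 in the knockouts and Efnb3 and Efna5 lay between 11.2 and 57.6. Efna4 shares exon sequence with a gene on the opposite strand, and the strand setting of the counting is not known from the descriptions, so its reads are uncertain.

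Among the Eph receptors, the kinases that bind ephrins, 8 of 9 were lower, with a median log2 difference of -0.49, of -0.26 without control replicate 2 and of -0.44 after the GC correction. Epha2, which binds Efna1, read 2941.1, 4589.0 and 2730.6 in the controls and 2225.2 and 2252.1 in the knockouts. Neither knockout reached the lowest control, with a difference of -0.57 (SE 0.277) with all libraries, -0.34 without control replicate 2 and -0.29 after the GC correction. Ephb4, the venous receptor of Efnb2, read 6357.9, 10036.1 and 6294.9 in the controls and 5966.0 and 5769.0 in the knockouts. These groups did not overlap either, but the difference of -0.33 (SE 0.263) shrank to -0.11 without control replicate 2 and to 0.0066 after the GC correction. Ephb1 read 501.7, 671.5 and 599.4 in the controls and 585.4 and 606.3 in the knockouts, with overlapping groups and a difference of 0.022. Ephb3 read 24.9, 36.8 and 32.9 in the controls and 5.5 and 26.5 in the knockouts: Tbx1cko replicate 1 was far below every other library, and Tbx1cko replicate 2 lay among the controls. Its log2 difference of -1.27 had an SE of 0.688 and was -1.15 without control replicate 2. Epha1, Epha4, Epha7, Ephb2 and Ephb6 overlapped between groups, Epha4 being the most abundant of them at 119.9 ± 14.1 normalised reads per kb.

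The ratio of ligand to receptor was set out for 5 pairs, within each library and per kb, as a description with no test. Efnb2 to Ephb4 read 0.589, 0.360 and 0.630 in controls and 0.545 and 0.685 in Tbx1cko. The low value was that of control replicate 2, and the groups overlapped. Efna1 to Epha2 read 1.28, 1.40 and 1.42 in controls and 1.60 and 1.63 in Tbx1cko. Both knockouts were above all controls in this ratio. Slit3 and Robo4 were set side by side as the most abundant Slit and Robo, with no claim that they bind. Slit3 to Robo4 read 0.0169, 0.0265 and 0.0186 in controls and 0.0145 and 0.0153 in Tbx1cko, which were below all controls. Ntn1 to Unc5b ran from 0.183 to 0.243 with overlapping groups, as did Sema7a to Plxnc1, its receptor, from 35.5 to 142.3.

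The class 3 semaphorins split evenly, 3 lower and 3 higher, with a median log2 difference of 0.11, which turned to -0.18 without control replicate 2 and to -0.21 after the GC correction. With all libraries, edgeR and DESeq2 on the recovered reads gave -0.18 and -0.17, so the direction of this family depends on the setting. Sema3f, a ligand for Nrp2 and plexins that restrains vessel growth, differed by -0.30 (SE 0.244), and by 0.043 after the GC correction. Sema3g, an endothelial class 3 semaphorin, differed by -0.34 (SE 0.385), by 0.015 without control replicate 2 and by -0.079 after the GC correction. Sema3d differed by 0.55 with an SE of 1.06, by -0.51 without control replicate 2 and by -0.47 after the GC correction. Sema3b read 26.0, 44.2 and 22.6 in the controls and 11.9 and 19.4 in the knockouts, a low level at which both knockouts were below all controls, by -0.92 (SE 0.471), or -0.64 without control replicate 2 and -0.60 after the GC correction. Its transcript was GC-rich too, at 57.9%, and its highest value was that of control replicate 2. Sema3c stayed between 9.0 and 22.6 in every library.

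Of the semaphorins of classes 4 to 7, all 12 tested were lower on the log2 scale with all libraries, Sema4d by less than any other, and 9 were lower without control replicate 2. The median was -0.37 with all libraries, -0.31 without that one and -0.22 after the GC correction, when 8 were lower. Sema4c, which signals through plexins of class B, is encoded on chromosome 1, 36548639 to 36558349 on the minus strand. It read 4865.3, 7310.7 and 4470.4 in the controls and 3321.9 and 3594.3 in the knockouts. The groups were separate, with a difference of -0.65 (SE 0.264, interval -1.31 to 0.014), a 1.57-fold lower level. It was -0.43 without control replicate 2 and -0.36 after the GC correction. Its share of the family level was 17.6%, 18.6% and 17.3% in controls and 13.8% and 13.1% in Tbx1cko. Without control replicate 2 its adjusted p was 0.357 by limma and 0.141 by DESeq2, the smallest of any member in any setting run.

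Sema7a, the most abundant of the class, read 12397.3, 19270.1 and 11666.7 in the controls and 11737.2 and 14343.4 in the knockouts. Tbx1cko replicate 2 was above 2 of the controls, and the difference of -0.12 (SE 0.276) came to 0.11 without control replicate 2 and to 0.19 after the GC correction. Sema6b read 2323.1, 3810.8 and 2155.7 in the controls and 1952.7 and 2064.6 in the knockouts, with both knockouts below all controls, by -0.41 (SE 0.297), but by -0.16 without that library and 0.062 after the GC correction. Sema5b, a low transcript, read 40.7, 71.7 and 33.9 in the controls and 23.8 and 23.4 in the knockouts, below in both knockouts by -0.94 (SE 0.43), or -0.63 without control replicate 2 and -0.55 after the GC correction. Sema6a read 3222.5, 3039.1 and 2679.8 in the controls and 2383.5 and 2342.8 in the knockouts. Here the highest library was control replicate 1, and the groups did not overlap. Sema6d read 3897.0, 3125.5 and 4099.7 in the controls and 3575.2 and 3142.8 in the knockouts, with control replicate 2 the lowest of all, and its difference without that library was -0.25. Sema4b and Sema6c were also below all controls, and Sema4a, Sema4d, Sema4g and Sema5a overlapped.

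Among the plexins, the receptors of semaphorins, 7 of 9 were lower and 2 higher, with a median log2 difference of -0.15, of -0.05 without control replicate 2 and of -0.01 after the GC correction. Plxna3, a receptor of class 3 semaphorins on chromosome X, 74329066 to 74344689 on the plus strand, read 46.3, 53.3 and 37.6 in the controls and 15.5 and 22.4 in the knockouts. Both knockouts were below all controls. Means were 45.8 ± 7.87 (SD, n = 3) for the controls, 19 ± 4.86 (SD, n = 2) for the knockouts. The log2 difference was -1.23 (SE 0.366), or 2.35-fold lower, at a limma adjusted p of 0.762. It was the 1 member with an unadjusted p under 0.05. Over the alternatives the difference ran from -1.49 to -0.98 and the adjusted p from 0.476 to 0.996. It is 1 of 3 X-linked members, with Efnb1 and Plxnb3, and the knockouts differed in Xist, as given above. The part of that difference in the Plxna3 values was not tested.

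Plxnd1 read 29087.0, 46633.7 and 29907.7 in the controls and 27518.8 and 22138.3 in the knockouts. Both knockouts were below all controls, by -0.48 (SE 0.269), but by -0.26 without control replicate 2 and -0.066 after the GC correction. Plxna2, a receptor of class 3 and class 6 semaphorins, read 3735.4, 3830.1 and 3972.6 in the controls and 3784.7 and 3772.6 in the knockouts, within a narrow range in all 5 libraries. Its difference of -0.025 had an interval of -0.43 to 0.38. Plxnb2, a receptor of class 4 semaphorins, read 3493.6, 3840.2 and 2854.8 in the controls and 3002.7 and 3086.8 in the knockouts, with overlapping groups and a difference of -0.15 (SE 0.202). This was -0.053 without control replicate 2 and 0.15 after the GC correction. Plxnb1, the receptor of Sema4d, read 349.1, 739.5 and 315.2 in the controls and 246.0 and 272.1 in the knockouts, with both knockouts below all controls, but it shares exon sequence with a gene on the opposite strand. Plxnc1, the receptor of Sema7a, read 492.6, 299.9 and 579.6 in the controls and 516.8 and 894.7 in the knockouts. It was higher by 0.62 with all libraries and by 0.35 without control replicate 2, and was 1 of the 2 members, with Efna4, that were higher in every alternative. Plxna1, Plxna4 and Plxnb3 overlapped between groups.

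Slit3, the most abundant Slit ligand, read 177.4, 420.4 and 185.4 in the controls and 138.1 and 137.6 in the knockouts. Neither knockout reached the lowest control, with a difference of -0.80 (SE 0.441), or -0.39 without control replicate 2 and -0.52 after the GC correction. Slit1 and Slit2 read between 7.5 and 56.0 with overlapping groups. Robo4, the endothelial Robo receptor, read 9918.3, 15023.3 and 9435.7 in the controls and 9024.5 and 8492.9 in the knockouts. These groups did not overlap, with a difference of -0.36 (SE 0.254) that came to -0.14 without control replicate 2 and to -0.14 after the GC correction. Robo2, better known from neurons, read 100.6, 109.5 and 107.3 in the controls and 77.7 and 153.9 in the knockouts, where the highest and the lowest library were both knockouts. Its difference was 0.05 (SE 0.36), and -0.59 after the GC correction. Robo1 and Robo3 ran from 18.4 to 74.3 and overlapped. Over the 7 Slit and Robo genes 2 were lower and 5 higher, with a median of 0.05, and of -0.09 without control replicate 2, when 4 were lower. The median was also below 0 after the GC correction, at -0.12 with 5 lower, and without Tbx1cko replicate 2, at -0.11.

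All 4 tested netrin and Unc5 genes were lower, with a median log2 difference of -0.50, of -0.32 without control replicate 2 and of -0.30 after the GC correction. Ntn1, a laminin-related guidance ligand, is encoded on chromosome 11, 68209364 to 68400823 on the minus strand. It read 995.4, 2077.9 and 1141.4 in the controls and 808.5 and 778.6 in the knockouts. The groups were separate, with a difference of -0.75 (SE 0.358) with all libraries, -0.43 without control replicate 2 and -0.43 after the GC correction. Ntn4, a netrin of vascular basement membranes, read 299.4, 348.6 and 289.8 in the controls and 223.2 and 229.3 in the knockouts, again with no overlap. Its difference of -0.46 (SE 0.218) came to -0.38 without control replicate 2 and -0.41 after the GC correction, so it moved little. Unc5b, the endothelial netrin receptor, read 5298.1, 8937.8 and 4696.2 in the controls and 4419.4 and 3926.5 in the knockouts. It was below all controls in both knockouts, by -0.54 (SE 0.318), or -0.26 without control replicate 2 and -0.19 after the GC correction. Unc5a overlapped between groups.

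**Figure D4:**
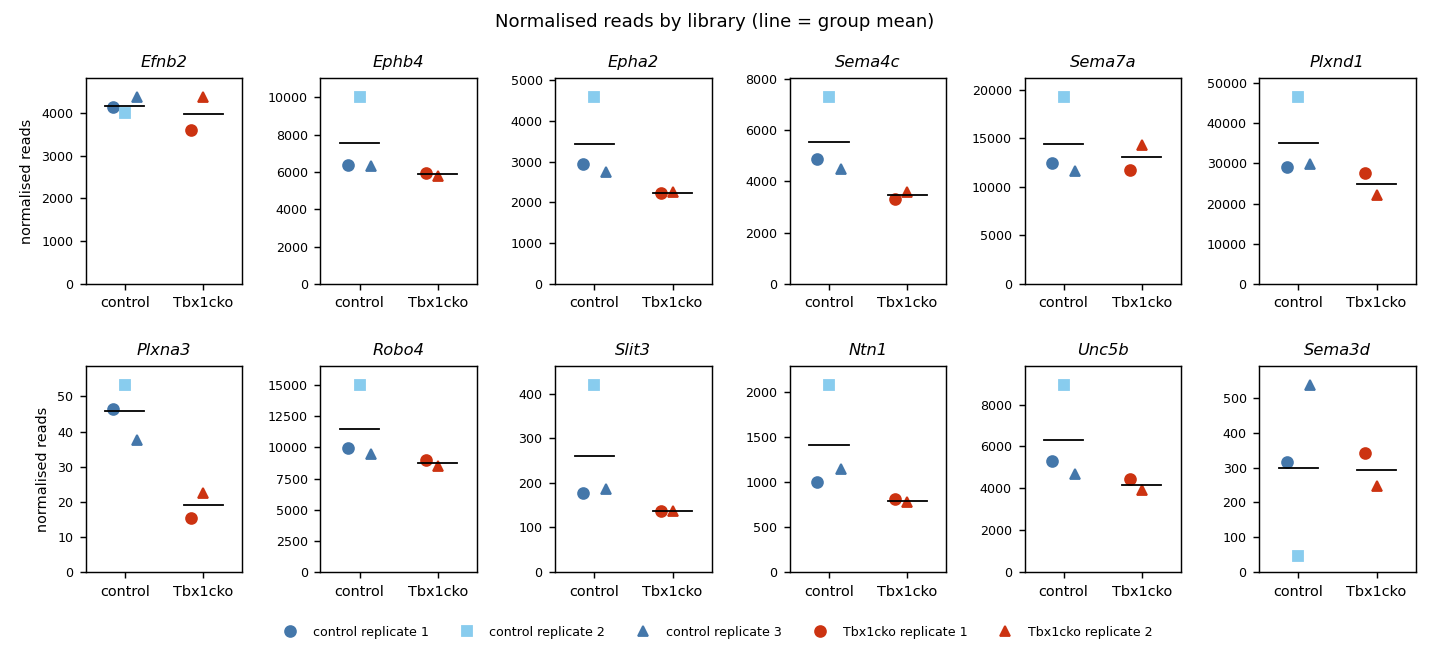
Normalised reads in each library for 12 members, with axes from 0, controls on the left, Tbx1cko on the right, black lines at the group means and control replicate 2 as a square. For Sema4c, Ntn1, Plxna3 and Slit3 both knockouts lie below all controls, while for Sema3d the square, at 45.1, lies far below every other library.

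The other genes of these pathways were read from lists fixed with earlier results of the data known. Of the co-receptors and further ligands, 22 of 25 were listed and 21 tested. None passed the adjusted test, 13 were lower and 8 higher, and the median log2 difference was -0.08. Nrp1, the neuropilin of arterial endothelium and a class 3 semaphorin co-receptor, read 16521.4, 13295.9 and 16087.2 in the controls and 15724.0 and 15077.1 in the knockouts. These groups overlapped through control replicate 2. Without it both knockouts were below the controls, by -0.08, as in 17.8% of all genes. Nrp2, the neuropilin of veins and lymphatics, read 11741.9, 10516.2 and 12354.5 in the controls and 11928.3 and 10448.5 in the knockouts. Its groups overlapped with and without control replicate 2. Of the genes that carry the signal inside the cell, 40 of 42 were listed and 38 tested, 24 lower and 14 higher, with a median of -0.09. Rnd1, a small GTPase that binds plexins, read 5737.6, 7382.4 and 4071.4 in the controls and 2728.3 and 2929.8 in the knockouts. Both knockouts were below all controls, by -0.98, and by -0.77 without control replicate 2. DESeq2 then called Rnd1 alone of the list, against 0.453% of all genes. Rnd2, of the same GTPase family, read 188.7, 332.1 and 158.1 in the controls and 107.0 and 110.1 in the knockouts. It was likewise lower in both knockouts, by -0.98, or -0.67 without control replicate 2. Rnd3, also of that family, read 516.4, 140.7 and 443.2 in the controls and 375.0 and 394.4 in the knockouts, with overlap. It differed by 0.27, and by -0.31 without control replicate 2. In 11 of the 38 tested list genes both knockouts lay below all controls, against 13.9% of all genes, and in 5 above, against 14.2%. limma called none of these genes at an adjusted p of 0.05.

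Beside these values, the sums of several cell type marker lists, in normalised reads, did not overlap between the groups. Pecam1, which encodes CD31, read between 33715 and 43313, and Lyz2, a lysozyme of macrophages, between 29682 and 53428. Per kb, the pan-endothelial markers summed to between 53312 and 83252 over the 5 libraries and the macrophage and monocyte markers to between 46081 and 69298. The 10 pan-endothelial genes summed to between 199303 and 284253 normalised reads in controls and to 196699 and 182258 in Tbx1cko, with 8 of 10 lower. Per kb these sums overlapped, at 57484 in control replicate 3 and 57860 in Tbx1cko replicate 1. All 11 mural cell markers were listed, 10 lower, with sums of 49933 to 61465 in controls and 40305 and 42194 in Tbx1cko. All 7 lymphatic markers were lower, with sums of 11205 to 14484 in controls and 9568 and 8168 in Tbx1cko. All 6 endocardial markers were lower, with sums of 11172 to 15985 and of 9226 and 8652. The neutrophil list had 6 of 7 markers tested and all 6 higher, with sums of 590.5 to 958.2 and of 1363 and 1328. Of 11 macrophage and monocyte markers 10 were higher, with overlapping sums of 64579 to 104252 and of 99082 and 100868. Without control replicate 2, 6 of the 11 were higher and 5 lower, and the median log2 difference went from 0.42 to 0.16. Platelet markers were higher in 5 of 6 tested, with sums of 1383 to 2400 and of 3712 and 3240. Pf4 held most of the Tbx1cko sums, at 2923.1 and 2726.0. Of the 6, only Pf4 and Ppbp had both knockouts above all controls, and the rest overlapped. The Schwann and neural list summed to between 264.0 and 301.1 in controls and to 316.5 and 366.9 in Tbx1cko, whereas fibroblast and lymphocyte sums overlapped. Cardiomyocyte sums were 7870, 12971 and 7136 in controls and 9792 and 8879 in Tbx1cko, so that they overlapped through control replicate 2 and, without it, were higher in Tbx1cko, with 7 of 8 markers higher. Without control replicate 2, DESeq2 called 6 of the 11 mural and 4 of the 7 lymphatic markers, all lower, against 0.453% of all genes in that fit. The same fit called 1 of 6 tested neutrophil markers (S100a9) and 1 of 6 tested platelet markers (Pf4), both higher. Ccr2 of the macrophage list was listed at 0 in control replicate 2. The part of these cells in the guidance values was not tested.

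**Figure D5:**
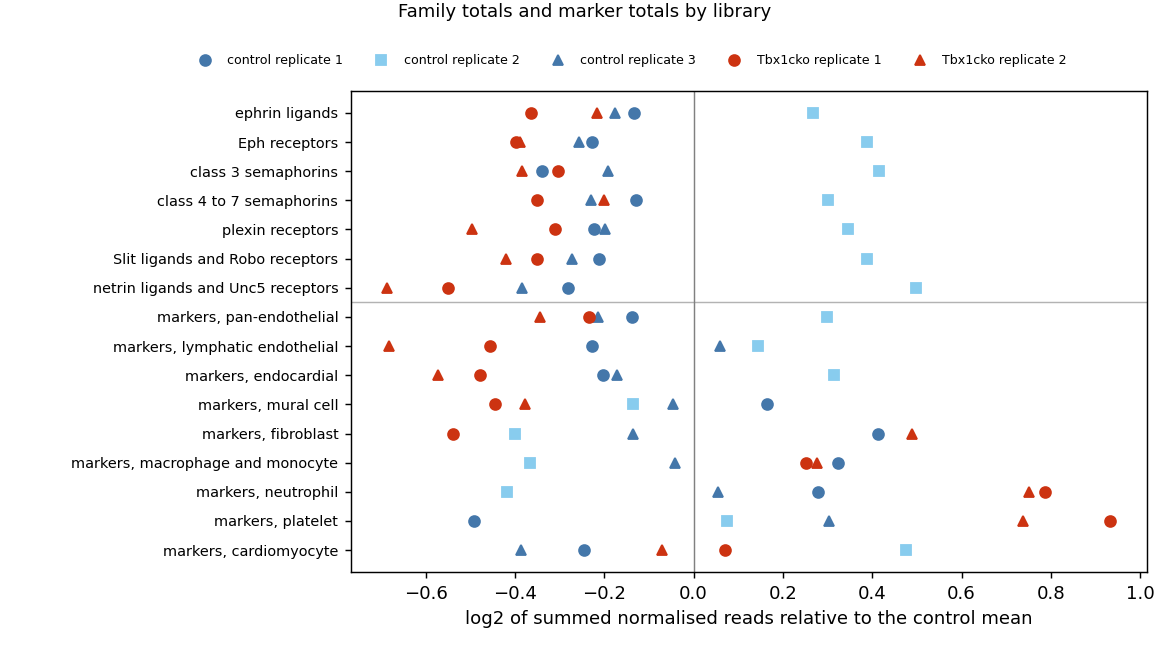
Summed normalised reads of each guidance family (above the line) and of each marker list (below it), as log2 relative to the mean of the controls, with 1 point per library. Control replicate 2, the square, is the rightmost point of every guidance family, and the mural, lymphatic and endocardial sums of both Tbx1cko libraries lie left of all controls.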

How the data were processed

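Polyadenylated RNA of 5 libraries was analysed. The values deposited by the authors are a normalised signal per gene, reads divided by a size factor. Per the submitters' processing notes the build was GRCm38 (mm10) and the tools named were DESeq2 1.20.0, DESeq, STAR 2.5.2b and R 3.5.1; counter, annotation and strand setting: not given in the sources used here. Every value (100%) was a whole multiple of 1 read within 0.01, which gave back the reads; a gene's reads over the libraries came to at least 12.

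Genes with a mean of at least 10 were tested (14339) with limma 3.58.1 in R 4.3.3 on log2(value + 1), genotype as the only term, trended prior, 2-sided, adjusted by Benjamini-Hochberg at 0.05. Fold changes on this scale understate low genes. Intervals are 95%. edgeR 4.0.16 and DESeq2 1.42.0 were run on the recovered reads as alternatives, beside other pseudocounts and filters, each library left out, a replicate block and a loess correction for GC. Lengths and GC came from the longest transcript of a symbol in GENCODE M21, matched for 16771 of 17638 genes and for 96.0% of those tested. The fits were tested on simulated data in which no library departed from the others by GC content. That test thus does not cover a departure like that of control replicate 2.

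Members and lists were chosen with earlier results of these data known. Named were the 3 members of each family with the highest level per kb and the 2 with the smallest p, with Tbx1; others were chosen after their values were seen. Antisense partners (Efna3, Efna4, Epha1, Plxna1, Plxnb1, Unc5a) make those reads uncertain. The same replicate number joins no animals in the labels.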

Additional observations from a re-analysis of the deposited data

How the results depend on the processing

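No guidance gene was called in the main test or in any of 17 alternatives. Over all genes 0 were called, and 3 with the replicate block, 4 with DESeq2, 0 to 3 when 1 library was left out (3 without control replicate 2), 1 with edgeR and 65 with DESeq2 when control replicate 2 was also left out. In the replicate block, control replicate 3 has no partner, and the member median equals that without it. Deviations of same-numbered libraries correlated at -0.056 and -0.046.

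A family median counted as moved if it shifted by at least the within-group SD of that family's library medians, control replicate 2 included. This bar differed by family, at 0.296 for Eph receptors and 0.0758 for class 3 semaphorins. Eph receptors are therefore not listed, although their median went from -0.49 to -0.26 without control replicate 2. A family not listed was thus not shown to be stable. Median log2 differences that moved were as follows. For ephrins, -0.13 with the GC correction, -0.47 to -0.14 with 1 library left out, and without control replicate 2 -0.14 by edgeR and -0.14 by DESeq2. For class 3 semaphorins, 0.23 with the block, -0.18 by edgeR, -0.17 by DESeq2, -0.21 with GC, -0.18 to 0.23 with 1 library left out, and without control replicate 2 -0.19 by edgeR, -0.19 by DESeq2 and -0.18 with GC. For plexins, -0.011 with GC and -0.29 to -0.053 with 1 library left out. For Slit and Robo genes, -0.16 with the filter at 50, -0.12 with GC, -0.11 to 0.17 with 1 library left out, and without control replicate 2 -0.11 by edgeR, -0.10 by DESeq2 and -0.089 with GC.

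Of 26 named members, 10 turned direction somewhere. With 1 library left out, ranges were -0.21 to 0.067 for Efnb2, -0.091 to 0.12 for Ephb1, -0.44 to 0.54 for Robo2, -0.51 to 1.27 for Sema3d, -0.55 to 0.015 for Sema3g and -0.26 to 0.11 for Sema7a. With GC, values were 0.0066 for Ephb4, 0.15 for Plxnb2, -0.59 for Robo2, -0.47 for Sema3d, 0.043 for Sema3f, 0.062 for Sema6b and 0.19 for Sema7a. With GC and without control replicate 2 they were 0.0041 for Ephb4, 0.038 for Plxnb2, -0.019 for Robo2, -0.61 for Sema3d, 0.086 for Sema3g, 0.062 for Sema6b and 0.21 for Sema7a. Ephb1 was -0.00047 by edgeR, and Sema3d -0.040 by edgeR and -0.031 by DESeq2. Without control replicate 2, edgeR gave -0.55 for Sema3d, 0.0071 for Sema3g and 0.10 for Sema7a, and DESeq2 gave -0.55, 0.0084 and 0.10. The cause was not tested. Members near 10 normalised reads rest on few reads.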
